A study of Homo sapiens with 6 samples.

Results

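Immediate-early genes are switched on within minutes of a growth or stress signal, before new protein is needed, and their mRNAs are among the shortest lived in the cell. The signal reaches their promoters through kinases such as ERK and p38, which phosphorylate partners of SRF (the factor that binds CArG boxes) and CREB (the factor that binds cyclic AMP response elements, CREs). The transcripts carry AU-rich elements that call in decay factors, so that their level follows the balance of synthesis and decay closely, and many chromosomal genes are transcribed less while chromosomes are condensed in mitosis. FOS, FOSB, JUN, JUNB, EGR1, MYC, IER2, IER3, DUSP1 and KLF6 were chosen by symbol as 10 such genes. Each had a row of its own among the 37879 rows of the array table, so 10 of 10 were measured.

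Total RNA came from HEK293T cells, a human embryonic kidney line that carries the SV40 large T antigen. All 6 samples were held in prometaphase with 50 ng/ml nocodazole, a drug that blocks microtubule growth, for 15 h per the labels, while the methods of the study name a longer treatment of these cells. The control samples (n = 3) carried the empty vector, and the Stau1 samples (n = 3) carried plasmids coding for Stau155-FLAG, a tagged form of the RNA-binding protein Staufen1. The comparison asks whether extra Staufen1 shifts transcript levels in prometaphase. Neither group holds untreated or cycling cells, so the data compare Stau1 with control inside mitosis and give no change on entry into mitosis. Nothing in the labels says that the 3 samples of a group came from separate cultures, so the p-values measure only the spread between these samples. In total RNA, fewer cells that hold a transcript and less of it per cell cannot be told apart.

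STAU1 itself was read at log2 levels of 11.19, 11.38 and 11.36 on control replicates 1, 2 and 3 and of 11.39, 11.51 and 11.47 on Stau1 replicates 1, 2 and 3. The groups did not overlap, and the difference was 0.15 (two-sided exact permutation test, p = 0.1, the smallest that 3 against 3 allows). The STAU1 row averages several probes, and which of them can read the plasmid transcript was not tested. All 14 mitotic genes checked, among them CCNB1, PLK1 and AURKB, were above background on all 6 arrays. Of the HEK293 markers NEFL, NEFM and INA were above background on all 6 arrays, LHX1 on 4, PAX2 on 1 and EYA1 on 0. Of the markers of other cell types 7 were above background on no array, and COL1A1 and PECAM1 were above it on all 6. Between 12730 and 13469 rows per array were above background, and any pair of arrays correlated at r between 0.987 and 0.996. A level here is the log2 of the background-corrected, quantile-normalized intensity, a row counts as above background on an array when its detection p is under 0.05, and the 13285 rows above background on at least 3 arrays were tested. Levels of different genes come from different probes and were not set against each other.

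The promoter stretches of JUN, EGR1, FOS and DUSP1 are shown because each holds an element through which early genes are known to be switched on, or the TATA box that places their start. The RefSeq table (GRCh38.p14) held a window for 8 of the 10 genes, from 250 bases before to 50 bases after the annotated start. Both strands were searched for the CArG box, the CRE (TGACGTCA), the AP-1 element (TGAGTCA), the JUN-type AP-1 element (TGACATCA) and the TATA box (TATAAA). Capitals mark the matches, which overlap one another nowhere in these windows. The last 150 bases before the start are printed 5′ to 3′ on the strand of the gene, for JUN at chr1:58784048-58784197 (minus), EGR1 at chr5:138465329-138465478 (plus), FOS at chr14:75278678-75278827 (plus) and DUSP1 at chr5:172771196-172771345 (minus).

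JUN: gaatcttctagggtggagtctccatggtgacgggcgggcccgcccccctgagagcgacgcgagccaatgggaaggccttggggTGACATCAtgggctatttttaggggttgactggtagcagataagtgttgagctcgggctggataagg
EGR1: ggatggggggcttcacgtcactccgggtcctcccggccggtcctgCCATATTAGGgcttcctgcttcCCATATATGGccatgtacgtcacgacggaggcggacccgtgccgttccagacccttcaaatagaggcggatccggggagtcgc
FOS: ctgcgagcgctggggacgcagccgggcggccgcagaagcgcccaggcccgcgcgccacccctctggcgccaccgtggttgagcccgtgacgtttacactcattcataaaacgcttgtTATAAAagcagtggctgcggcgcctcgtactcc
DUSP1: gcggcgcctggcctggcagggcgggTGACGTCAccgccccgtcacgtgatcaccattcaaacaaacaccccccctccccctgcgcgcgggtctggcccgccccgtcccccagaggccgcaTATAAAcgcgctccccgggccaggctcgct

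With the first base of the gene counted as 0, the JUN match TGACATCA lay at -67 to -60. EGR1 held a pair of CArG boxes at -105 to -96 and -83 to -74. DUSP1 held a CRE at -125 to -118 and a TATA box at -30 to -25, and FOS a TATA box at -33 to -28. KLF6 also held the JUN-type element, at -172 to -165, and FOSB and JUNB held TATA boxes at -30 to -25 and -31 to -26, while the IER2 window had no match to these letters. Over all 35116 windows of the table the CArG box occurred in 1.29%, the CRE in 1.85%, the JUN-type element in 2.61% and the TATA box in 11.5%, against 1, 1, 2 and 4 of the 8 windows here. The AP-1 element occurred in 4.95% of all windows and in none of the 8. A match is a stretch of letters and was not tested as a binding site. Elements more than 250 bases before the start, or spelled with other letters, would not be found, for FOS as for the others.

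None of the 10 transcripts passed an adjusted p of 0.05 between Stau1 and control (limma with Benjamini-Hochberg adjustment over all 13285 rows, adjusted p = 0.999 for each), and 0% of all rows did. At an unadjusted p under 0.05 there was 1 of the 10, JUN, beside 495 rows or 3.73% of those tested. The methods' t-test gave 464 rows and 1 of the 10 at that level and 0 of either after adjustment. The mean was higher with Stau1 for 7 transcripts and lower for 3, and 49.4% of all rows were higher (8 transcripts and 69.4% of rows with median scaling). The median change was 0.09 on the log2 scale against -0.00206 over all rows, and the median size of change was 0.17 against 0.09. Groups did not overlap for 1 transcript, EGR1, beside 7.91% of all rows. The 95% intervals of the single changes reached from -0.68 (JUNB) to 0.54 (FOS). None of the 10 intervals held a difference of 1 on this log2 scale in either direction. The offset of 16 added to the intensities shrinks changes near background. For transcripts near background, such as FOS, a 2-fold change is therefore not excluded. With the background taken from all rows, those of several probes included, the changes of FOS, FOSB, EGR1 and JUNB were 0.00877, 0.04, 0.03 and -0.02, closer to 0 than the values below.

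**Figure D1:**
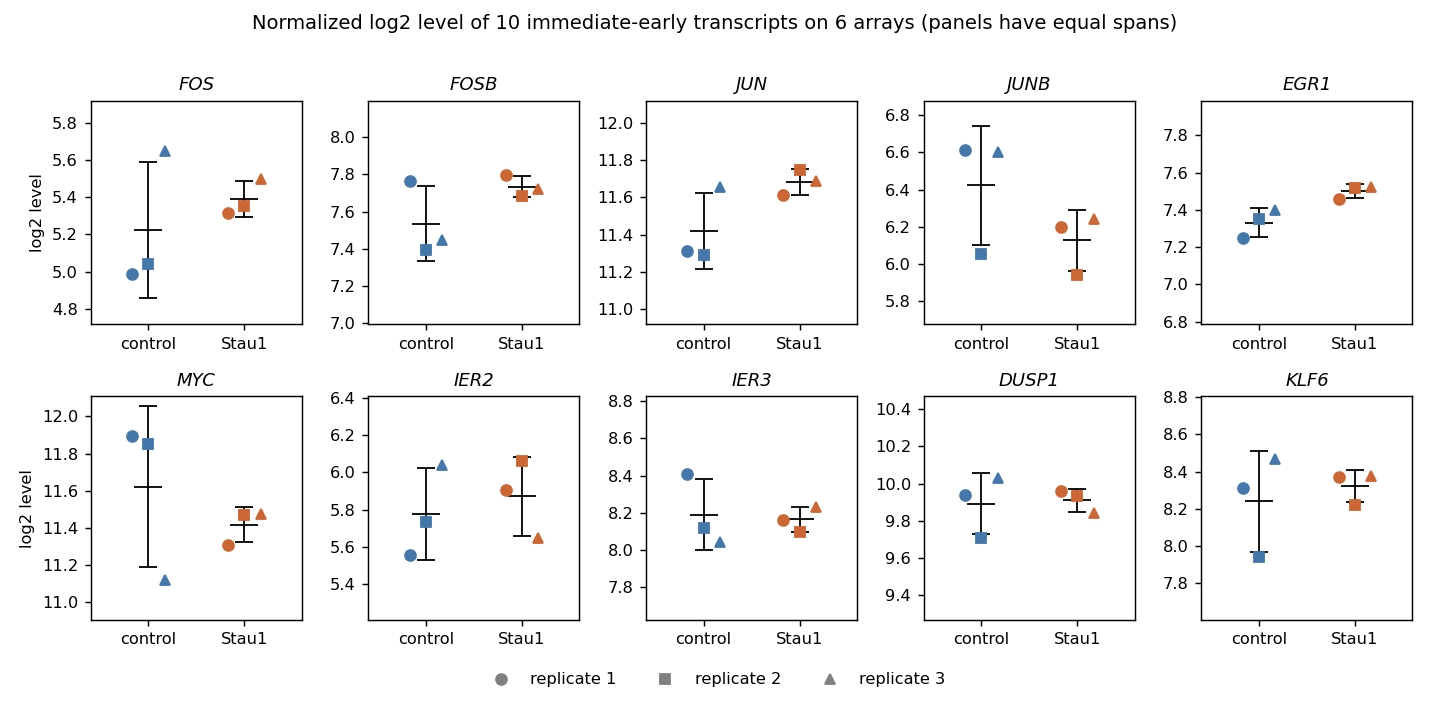
Log2 level (vertical axis) of each of the 10 transcripts on the 3 control arrays (blue) and the 3 Stau1 arrays (orange), with the replicate given by the marker and the group mean ± SD in black; panels span the same number of log2 units. The control points of FOS, JUN and MYC lie further apart than their Stau1 points, and EGR1 has no overlap between groups.

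FOS, JUN and their relatives form AP-1, a dimer of one JUN-family protein with a FOS-family or a second JUN-family protein. JUN, which can bind DNA as a dimer with itself, read 11.31, 11.29 and 11.65 on control replicates 1, 2 and 3 and 11.61, 11.75 and 11.69 on the Stau1 replicates. All Stau1 arrays lay above control replicates 1 and 2, and control replicate 3 lay among them, so the groups overlapped. The means were 11.42 ± 0.20 and 11.68 ± 0.07 (SD, n = 3 arrays each). The change was 0.26 (1.20-fold, SE 0.11, 95% interval 0.03 to 0.49), with an unadjusted limma p of 0.0296 and an adjusted p of 0.999. The exact permutation test of the same values gave p = 0.2.

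FOS, which dimerises only with a partner, was close to background. It read 4.99, 5.04 and 5.65 on the control arrays and 5.31, 5.35 and 5.50 on the Stau1 arrays, in replicate order. Its detection p was under 0.05 on 1 control array (replicate 3, 0.0237) and 2 Stau1 arrays (0.0474 and 0.0369), so that it entered the test with the fewest arrays allowed. Control replicate 3 was the highest of the 6 and the other control arrays the lowest. The change was 0.16 (SE 0.17, 95% interval -0.21 to 0.54, exact permutation p = 0.5), which lay within the spread of the control arrays (SD 0.37, n = 3).

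FOSB, the FOS relative known for long-lived splice forms in neurons, read 7.76, 7.39 and 7.45 on the control arrays and 7.80, 7.69 and 7.72 on the Stau1 arrays. Here control replicate 1 and not replicate 3 lay among the Stau1 values, and the groups overlapped. The change was 0.20 (SE 0.15, 95% interval -0.12 to 0.52, exact permutation p = 0.3). JUNB, which often opposes JUN in growth control, had the lowest change of the 10. It read 6.61, 6.05 and 6.60 on the control arrays and 6.20, 5.94 and 6.24 on the Stau1 arrays, so that control replicate 2 lay among the Stau1 values. The change was -0.29 (0.815-fold, SE 0.18, 95% interval -0.68 to 0.09, exact permutation p = 0.3).

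EGR1, a zinc-finger factor that binds GC-rich promoters and is the textbook target of SRF at CArG boxes such as the pair printed above, read 7.25, 7.35 and 7.40 on the control arrays. On the Stau1 arrays it read 7.46, 7.52 and 7.53. Every Stau1 array lay above every control array, the only one of the 10 transcripts without overlap. The means were 7.33 ± 0.08 and 7.50 ± 0.04 (SD, n = 3 arrays each), and this within-group spread was lower than that of all but 4.15% of rows. The change was 0.17 (1.12-fold, SE 0.14, 95% interval -0.13 to 0.47). Its exact permutation p was 0.1, the smallest possible. KLF6, another zinc-finger factor and a regulator of cell growth, read 8.31, 7.94 and 8.47 on the control arrays and 8.37, 8.22 and 8.37 on the Stau1 arrays. All Stau1 values lay between the lowest and highest control values, and the change was 0.08 (SE 0.15, exact permutation p = 0.8).

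MYC, the growth-promoting factor that pairs with MAX, read 11.89 and 11.85 on control replicates 1 and 2 but 11.12 on control replicate 3. The Stau1 arrays read 11.31, 11.47 and 11.47, so that control replicate 3 was the lowest array and the other control arrays the highest. The SD over the control arrays was 0.43 (n = 3) against 0.09 over the Stau1 arrays, and 92.9% of rows had a smaller spread within groups. The change was -0.20 (0.868-fold, SE 0.16, 95% interval -0.56 to 0.15, exact permutation p = 0.4).

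DUSP1, a phosphatase that turns off ERK, p38 and JNK and so closes the loop that induced it, read 9.94, 9.71 and 10.03 on the control arrays and 9.96, 9.93 and 9.84 on the Stau1 arrays. Its change was 0.02 (SE 0.11, 95% interval -0.23 to 0.27, exact permutation p = 0.9), and the Stau1 values lay inside the control range. IER3, an early gene tied to cell survival, read 8.41, 8.12 and 8.04 on the control arrays and 8.16, 8.10 and 8.23 on the Stau1 arrays, again inside the control range. Its change was -0.03 (SE 0.14, 95% interval -0.33 to 0.28, exact permutation p = 0.9). IER2, a small nuclear early protein, read 5.55, 5.74 and 6.04 on the control arrays and 5.91, 6.06 and 5.65 on the Stau1 arrays. Its change was 0.09 (SE 0.17, 95% interval -0.27 to 0.46, exact permutation p = 0.7), with both groups spread over nearly the same range. The standard error that the deposited table gives for the beads of a row ranged over the 6 arrays from 2.72 to 4.24% of the intensity for JUN and from 4.83 to 6.51% for IER2.

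Levels varied more over the control arrays than over the Stau1 arrays for 10 of the 10 transcripts, beside 68.4% of all rows. The median control SD was 0.22 against 0.17 over all rows, and the median Stau1 SD was 0.08 against 0.12. Control replicate 2 lay below the mean of the 6 arrays for 9 of the 10 transcripts, MYC being the exception, beside 50.3% of all rows, and it was the lowest array for 4, beside 20.1%. Control replicate 3 was the highest array for FOS, DUSP1 and KLF6 and the lowest for MYC and IER3. Control replicate 1 or 2 was the lowest array for 7 of the 10, beside 45.5% of rows. The median deviation of the 10 from their own means was -0.21 on control replicate 2 and between 0.03 and 0.11 on the other 5 arrays.

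**Figure D2:**
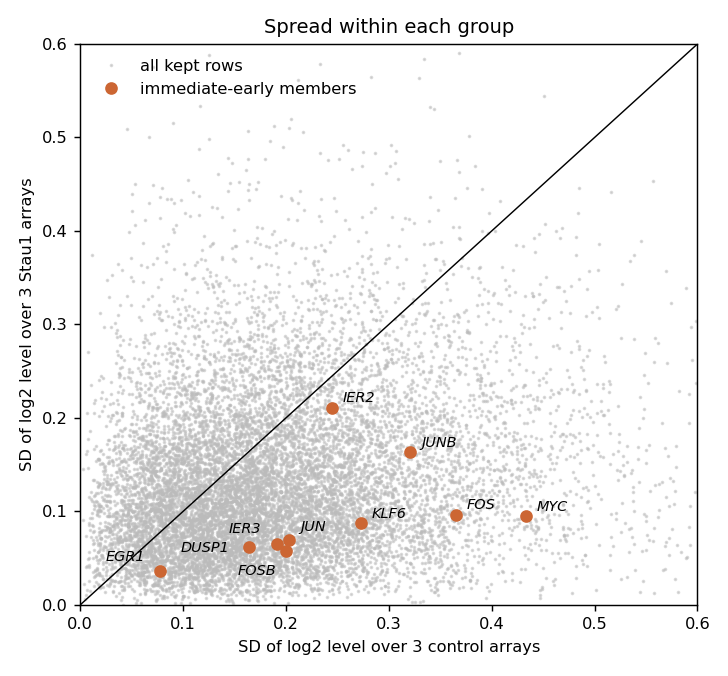
SD of the log2 level over the 3 Stau1 arrays (vertical axis) against the SD over the 3 control arrays (horizontal axis), with the 10 transcripts in orange, all tested rows in grey and a line of equal spread; 110 rows fall outside the axes. All 10 transcripts lie below the line, MYC and FOS farthest to the right.

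**Figure D3:**
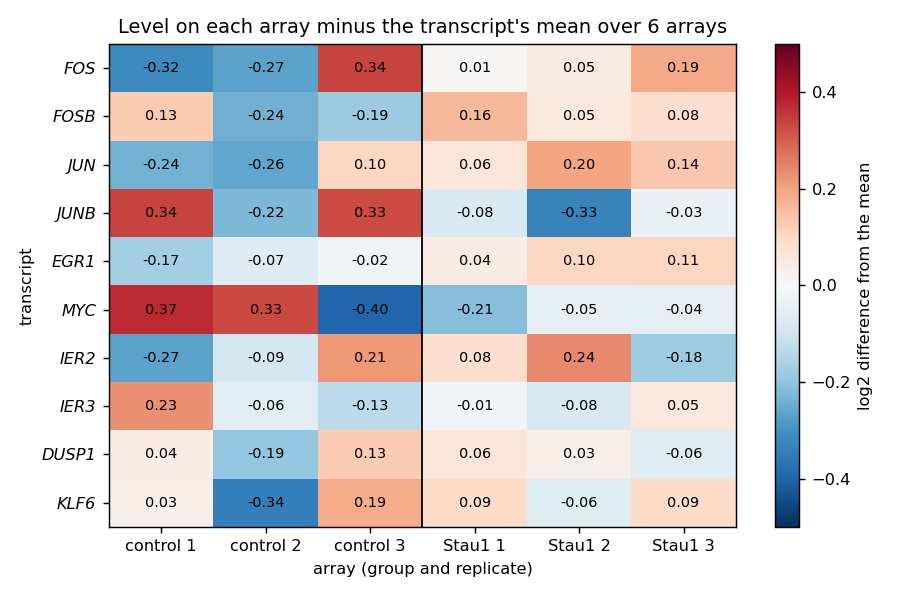
Deviation of each transcript (rows) on each array (columns) from its own mean over the 6 arrays, in log2 units, red for above and blue for below. FOS and JUN are low on control replicates 1 and 2, MYC is high on the same arrays and low on control replicate 3, and KLF6 is lowest on control replicate 2.

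The 10 transcripts did not rise and fall as 1 group. Among their 45 pairs the median Pearson r over the 6 arrays was 0.20, with 28 pairs above 0, beside a median of -0.001 over all pairs of tested rows. The highest r was 0.87 between JUN and EGR1 and the lowest was -0.92 between FOS and MYC. These are descriptions over 6 arrays that share the same normalization, and FOS, near background, has the least reliable values of the 10. The mean of the 10 standardised profiles, which holds each transcript's own values, followed KLF6 (r = 0.93), DUSP1 (0.84) and JUN (0.75) most closely, while MYC ran against it (-0.68). Among all tested rows the 5 whose levels were most like this mean profile were DCUN1D2 (r = 0.997), SH3PXD2B (0.987), FADS2 (0.986), MDM4 (0.984) and C20ORF24 (0.978). The mean profile stood at -0.85 on control replicate 2 and between 0.02 and 0.26 on the other arrays. Each of these 5 rows was lowest on control replicate 2, so their r values rest mainly on that array.

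The size of several changes rested on control replicate 3. Without it, the JUN change was 0.38 (95% interval 0.17 to 0.58, limma adjusted p = 0.134). The FOS change was 0.37 (95% interval 0.06 to 0.68, limma adjusted p = 0.306), and the MYC change was -0.45 (95% interval -0.66 to -0.24, limma adjusted p = 0.0734). Thus 3 transcripts were at an unadjusted p under 0.05, beside 12.7% of all rows, and the 2 of them that were higher stand beside 7.18% of all rows that were higher at that level. None of the 10 passed the adjusted threshold without this array, beside 39 rows or 0.294% of all rows (limma, Benjamini-Hochberg). Control replicate 3 was nearer to the Stau1 mean than to the other control arrays for 7 of the 10 transcripts and for 70.1% of all rows. All Stau1 arrays and control replicate 3 lay above control replicates 1 and 2 for FOS, JUN and EGR1, beside 13.1% of all rows. The labels give no reason to leave this array out, and its part in the differences was not tested. The direction of the 10 leaned on control replicate 2. Without that array 5 of the 10 were higher, beside 49.7% of all rows, and the median change was 0.00484. DUSP1 and KLF6 then turned to -0.07 each.

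**Figure D4:**
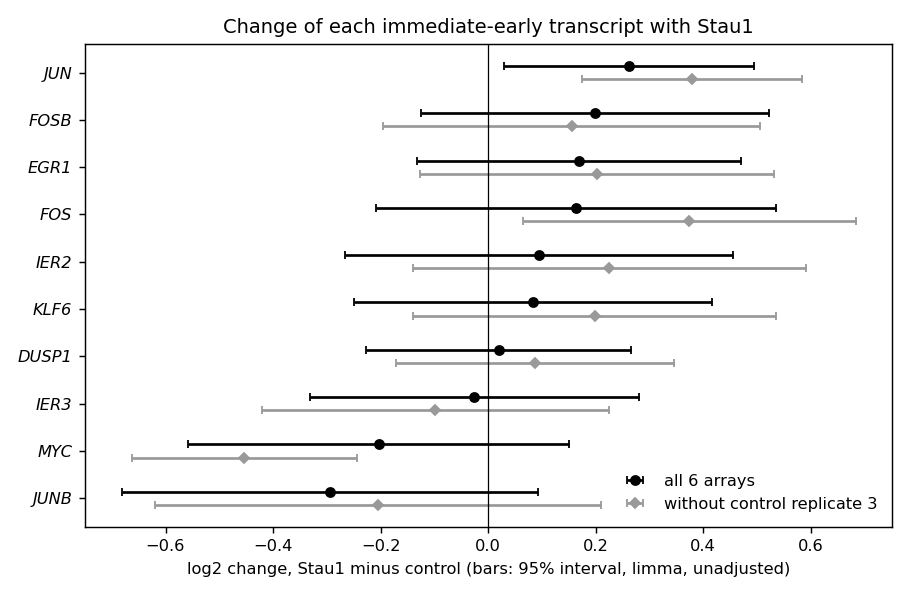
Log2 change, Stau1 minus control, of each transcript (rows) with its unadjusted 95% interval from limma, over all 6 arrays (black) and without control replicate 3 (grey). Over all arrays only the interval of JUN leaves out 0, and without control replicate 3 those of JUN, FOS and MYC do.

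The genes around these transcripts were read from lists, 178 genes in all, of which 149 were tested. None passed the adjusted threshold (limma, Benjamini-Hochberg, adjusted p = 0.999), and 7 were at an unadjusted p under 0.05, beside the 3.73% of all rows at that level. The directions given for each list below stand beside the 49.4% of all rows that were higher, and nothing is read from them about a list. A lack of overlap given below stands beside 7.91% of all rows. Most genes named from the lists were picked by a low unadjusted p, which favours groups without overlap. Of 11 tested AP-1 partners 9 were higher and 2 lower (median 0.09), with 0 at an unadjusted p under 0.05. JUND, a JUN relative, read 11.86, 11.62 and 12.15 on the control arrays and 11.98, 12.12 and 12.10 on the Stau1 arrays. Its change was 0.19 (SE 0.12), while BATF3, a partner of JUN proteins in immune cells, differed by -0.28 (SE 0.13). Of 12 tested relatives and co-factors of EGR1 and KLF6 6 were higher and 6 lower (median 0.03), and NAB1, the co-repressor of EGR1, differed by -0.29 (SE 0.19) and KLF9 by -0.18 (SE 0.11). The MYC network was higher for 9 of 15 genes (median 0.09), with MNT, a rival of MYC for the partner MAX, at 0.27 (SE 0.16) and MXD4, a member of the same rival family, at 0.19 (SE 0.10).

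Of 33 tested other early genes 19 were higher and 14 lower (median 0.04), with 2 higher and 1 lower at an unadjusted p under 0.05. The lower one was ID2, an inhibitor of helix-loop-helix factors, which read 12.53, 12.43 and 12.13 on the control arrays and 12.03, 12.07 and 12.13 on the Stau1 arrays (change -0.29, SE 0.10). Control replicate 3 lay at the level of the Stau1 arrays. SRF, which binds the CArG boxes and is itself an early gene, read 11.20, 11.22 and 11.16 on the control arrays and 11.34, 11.35 and 11.51 on the Stau1 arrays, without overlap (change 0.21, SE 0.09). The other higher gene, MIDN, was named after its values were seen (change 0.30, SE 0.13). Of the 12 DUSP and Sprouty-family inhibitors 6 were higher and 6 lower (median -0.01), with DUSP5, an ERK phosphatase, at -0.21 (SE 0.14) and SPRED2 at 0.16 (SE 0.13).

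Among 29 tested kinases and factors that act on early promoters 19 were higher and 10 lower (median 0.07), and 3, each higher, were at an unadjusted p under 0.05, beside 3.73% of all rows at that level in either direction. Besides SRF these were the paired acetyltransferases that CREB recruits. EP300 read 7.52, 7.05 and 7.37 on the control arrays and 7.58, 7.85 and 7.82 on the Stau1 arrays, without overlap (change 0.44, SE 0.16), and CREBBP differed by 0.47 (SE 0.17). Of 39 tested factors of mRNA decay 23 were higher and 16 lower (median 0.02). IGF2BP1, which binds MYC mRNA and slows its decay, read 5.70, 6.14 and 5.99 on the control arrays and 6.50, 6.36 and 6.61 on the Stau1 arrays, without overlap (change 0.54, SE 0.16). MYC itself differed by -0.20 over the same arrays, and no link between MYC and IGF2BP1 was tested. EDC4, a scaffold of the decapping complex, differed by 0.23 (SE 0.11). Of the 14 mitotic genes 4 were higher and 10 lower (median -0.05), with TOP2A (-0.41) and CENPF (-0.36) lower at an unadjusted p under 0.05. Of the 5 tested HEK293 markers 3 were higher and 2 lower (median 0.03), with INA at 0.08 and NEFL at -0.11. Of the markers of other cell types COL1A1 differed by -0.25 and PECAM1 by -0.20. Whether the mix of cells moved with any early transcript was not tested.

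**Figure D5:**
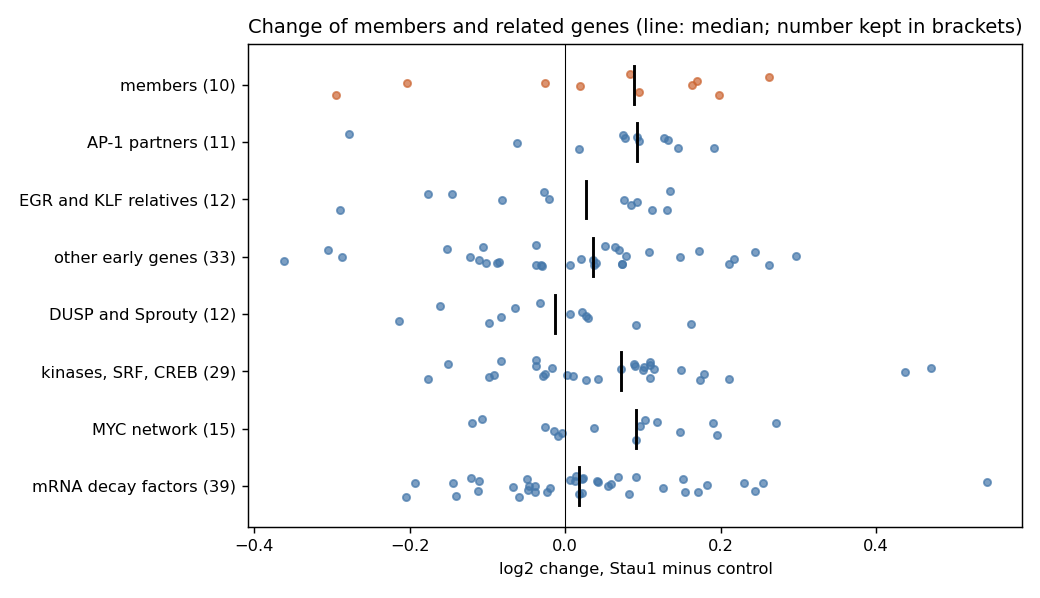
Log2 change, Stau1 minus control, of the 10 transcripts (orange) and of the tested genes of 7 related lists (blue), 1 point a gene, with the list median as a black line and the number of tested genes in brackets. The medians lie between -0.01 and 0.09, and IGF2BP1, CREBBP and EP300 are the 3 points above 0.4.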

How the data were processed

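The deposited table, not normalized, held for each row and array the mean intensity over the beads, their standard error (an intensity), the bead number (a score) and a detection p-value, as exported by the authors' BeadStudio software from Illumina HumanWG-6 arrays. A background correction, variance stabilisation, robust spline normalization and t-test are described by the authors in the account of immunoprecipitated RNA, and whether the first 3 were also applied to these arrays is not stated; the deposited table used here is from before them. No genome build is given for the array table in the sources used here. Intensities were background corrected with normexp (offset 16), with the background taken from the detection p of the 30932 rows of 1 probe, which fall in whole steps of 1/759 (tolerance 0.002 steps), then quantile normalized and set on the log2 scale. The 13285 rows (35.1% of 37879) with detection p under 0.05 on at least 3 arrays were fitted in limma 3.58.1 (R 4.3.3, lmFit, eBayes with trend), with two-sided p-values and Benjamini-Hochberg adjustment over all rows. Where a gene has several probes its row is their average. The fit was tested on simulated data.

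The transcripts and the lists around them were chosen with earlier results of these data known. From each list, genes past the threshold were to be named, or else the 2 with the lowest unadjusted p, and the 5 rows most like the mean profile. Of 221 list entries 218 matched a row by symbol and 3 by an older symbol through the RefSeq GRCh38.p14 gene table, used for names only; the promoter windows and their coordinates came from a separate RefSeq table of the same build. Replicate numbers, taken from the labels, were not used to pair samples in the main fit. Same-numbered arrays deviated with r of 0.02, 0.26 and -0.14, which cannot show whether the samples were paired. Alternatives were the background, offset, normalization, filter, variance model, test, replicate block and leaving out each array. No value column was left unmapped. The number of arrays limits the precision. Some marker genes are not reported here.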

Additional observations from a re-analysis of the deposited data

How the results depend on the processing

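None of the 10 early transcripts and none of the 149 related genes passed the adjusted threshold over all 6 arrays or with any 1 array left out. The median change over the 10 stayed above 0, between 0.01 and 0.12 over all 6 arrays. With 1 array left out it lay between 0.00484, without control replicate 2, and 0.18, without control replicate 3. All rows called numbered 0 over all 6 arrays and 0 to 39 with 1 array left out, the 39 without control replicate 3. Directions held for FOS, FOSB, JUN, JUNB, EGR1 and MYC in every setting in which they were tested. With array weights IER2 turned to -0.0105 and IER3 to 0.0418, and with median scaling IER3 turned to 0.0485. That scaling shifted the median of all rows to 0.07 and the share of rows that were higher from 49.4 to 69.4%. With 1 array left out IER2 ran from -0.0163 to 0.226, IER3 from -0.0980 to 0.0830, DUSP1 from -0.0717 to 0.0874 and KLF6 from -0.0672 to 0.198, and the cause was not tested. The replicate block gave 0 rows, 0 of the 10 transcripts and the same median of 0.09.

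FOS ranged from 0.00877, with the background taken from all rows, to 0.24 with array weights, and from 0.05 to 0.37 with 1 array left out. JUN ranged from 0.20 to 0.38 with 1 array left out, and none of the 10 was at an unadjusted p under 0.05 with the background from all rows, with median scaling, without the variance trend and without Stau1 replicate 2 or 3. MYC ranged from -0.45 to -0.07 with 1 array left out. With the filter at a detection p under 0.01 on all arrays FOS, JUNB, IER2 and KLF6 dropped out and 6 transcripts were tested. The rows of KLF6 and MYC average several probes. KLF6 intensities ran from 292 to 522, and its detection p reached 0.0278 on Stau1 replicate 3. Of 13285 rows, those at an unadjusted p under 0.05 numbered 229 with median scaling, 495 as reported, 1297 with array weights and 1690 without control replicate 3, and of 37879 rows they numbered 1565 without a filter. Intensities near background limit FOS most.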
